A study of Mus musculus with 16 samples.

Results

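The 8 Hedgehog pathway genes *Shh*, *Ihh*, *Ptch1*, *Smo*, *Gli1*, *Gli2*, *Gli3* and *Hhip* were followed by single-cell RNA sequencing through gastrulation and early organogenesis of chimeric mouse embryos. They were taken by gene symbol from the 29453 genes of the deposited matrix, and all 8 were present. CD1 mouse embryonic stem cells without functional *Stat3*, in which a neomycin cassette takes the place of exons 20 to 22, were marked with tdTomato and placed in CD1 blastocysts of the wild type (WT). Cells of the chimeras were collected at E7.5 (embryonic day 7.5), at E8.5 or at E9.5 and sorted into a tdTomato-positive fraction, the *Stat3* null cells, and a tdTomato-negative fraction, the host WT cells. Pooled embryos gave 2 libraries per genotype at each of the earlier stages, and E9.5 gave 4 per genotype. The E7.5 embryos were classed as large or small before pooling, and if a pool held 1 size class, the spread between the 2 E7.5 libraries of a genotype includes that difference. In these chimeras null and WT cells shared 1 embryo, so a gene for a secreted ligand was measured in the cells that make it while the ligand itself could reach cells of both genotypes. The deposited library names do not name the embryo pool, so libraries are lettered A to D within a group and a letter pairs nothing. At E9.5 cells of only 2 embryos, dissociated one by one, were sequenced, so the 4 libraries of a genotype share embryos. An n of 4 counts libraries, and p-values measure the spread between libraries, which may be partly technical, and at E9.5 they are too small as statements about embryos.

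Hedgehog ligands are secreted proteins that bind the receptor PTCH1. In the absence of ligand PTCH1 holds the transducer SMO inactive, and GLI3, and to a lesser degree GLI2, are processed into repressors; with ligand, SMO enters the primary cilium and full-length GLI proteins activate transcription. *Ptch1*, *Gli1* and *Hhip* are themselves switched on by the pathway and are widely used as its readouts, and PTCH1 and HHIP bind ligand and so limit its spread. In the embryo *Shh* from the node, notochord and floor plate patterns the ventral neural tube and the sclerotome, and *Ihh* is made by visceral and gut endoderm.

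In the mouse GRCm38 annotation *Shh* (ENSMUSG00000002633) lies at chr5:28456815-28467256, *Ihh* (ENSMUSG00000006538) at chr1:74945315-74951672, *Ptch1* (ENSMUSG00000021466) at chr13:63508328-63573598, *Gli1* (ENSMUSG00000025407) at chr10:127329882-127341974, *Gli2* (ENSMUSG00000048402) at chr1:118834132-119053619 and *Hhip* (ENSMUSG00000064325) at chr8:79965851-80058006, all on the minus strand. *Smo* (ENSMUSG00000001761) at chr6:29735503-29761365 and *Gli3* (ENSMUSG00000021318) at chr13:15463235-15730026 are on the plus strand. On the other strand *Gli1* overlaps *Arhgap9* among others, and *Shh*, *Gli2*, *Gli3* and *Hhip* overlap other annotated genes. *Ptch1*, *Smo* and *Gli3* each overlap an uncharacterised gene on their own strand. Whether reads in these overlaps altered the counts was not tested. Of the 8 genes, 6 had a promoter in the RefSeq table of build GRCm38.p6 (*Shh* and *Gli1* did not). The 250 bases upstream of the RefSeq start of *Ptch1* (chr13:63565736-63565985, minus strand, before a RefSeq start that lies inside the gene's annotated span) and *Hhip* (chr8:80058009-80058258, minus strand) are shown because both genes respond to the pathway and changed between stages below. They are printed 5′ to 3′ with CG dinucleotides in capitals.

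Ptch1: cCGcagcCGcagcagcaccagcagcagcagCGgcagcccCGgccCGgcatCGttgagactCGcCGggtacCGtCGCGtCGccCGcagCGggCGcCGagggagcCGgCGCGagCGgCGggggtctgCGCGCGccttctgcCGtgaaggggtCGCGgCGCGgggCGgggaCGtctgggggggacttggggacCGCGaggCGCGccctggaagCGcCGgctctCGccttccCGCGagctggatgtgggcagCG
Hhip: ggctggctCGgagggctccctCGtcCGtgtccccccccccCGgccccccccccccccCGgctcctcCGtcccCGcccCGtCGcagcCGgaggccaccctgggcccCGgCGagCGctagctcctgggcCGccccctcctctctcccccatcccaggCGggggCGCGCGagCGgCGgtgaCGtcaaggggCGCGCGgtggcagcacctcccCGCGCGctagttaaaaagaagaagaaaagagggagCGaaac

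The *Ptch1* window held 41 CG dinucleotides at 78.4% GC, and its GC content was above that of 98.1% of the 32851 mouse promoter windows of the same length. The *Hhip* window held 28 at 76% GC. The other 4 windows had 15 (*Smo*), 22 (*Gli2*), 24 (*Ihh*) and 34 (*Gli3*) CG dinucleotides against a median of 6 over all windows, and GC contents of 67.2% to 72.8% against a median of 52.4%. The core of the GLI binding motif, GACCACCCA on either strand, was in 0 of the 6 windows and in 74 of all 32851 (0.225%), and the STAT motif TTCNNNGAA was in 0 of the 6 and in 2306 of all windows (7.02%). No match says only that these letters are not in these 250 bases.

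Of 41832 cells, 3395 doublets and 596 WT-sorted cells that held a tdTomato UMI were not used, and 37841 cells in 87 mapped cell types remained. Libraries held 360 to 4327 cells and 20682659 to 138613245 unique molecular identifiers (UMIs, each 1 captured mRNA molecule), with 18205 to 57791.5 UMIs in the median cell. *Stat3*, the deleted gene, stood at 8.33 to 12.8 CPM (UMIs of a gene per 1000000 UMIs of the 21269 genes kept) in WT libraries and at 1.62 to 3.77 in null libraries, with no overlap at any stage. These are 3′ tags, and whether a tag lies within the deleted exons was not tested. A tdTomato UMI was seen in 72.3% to 98.3% of cells of the null libraries. The E9.5 WT libraries C and D shared 292 cell barcodes, 15.3% of the smaller library, and 3.42% of these had the same cell type in both; no other pair shared more than 8. Cell type names are the authors' mapping to an embryo atlas, which may itself have used some of these genes. Floor plate cells had 6 of 6 fixed markers at over 2-fold the level of the other cells at E8.5 and E9.5 in both genotypes, sclerotome had 5 of 5 and migratory neural crest 4 of 4. Limb mesoderm at E9.5 had 3 of 5, and WT ventral forebrain had 2 of 4 at both stages. Pharyngeal endoderm had *Foxa2* below other cells, and the 6 E8.5 WT cells named node had 2 of 5 markers at 0. First heart field progenitors, yolk sac mesothelium and cranial mesoderm were not checked. At E9.5 the cells named branchial arch neural crest in WT had 1 of 4 markers above other cells (4 of 4 at E8.5), and the 5 cells named node had 4 of 5 markers at 0.

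*Shh* came from a few midline and endoderm populations whose order changed with stage. Of the 125 *Shh* UMIs in E7.5 WT cells, 63.2% were in node cells, the organiser at the tip of the primitive streak, and 23.2% in gut tube. At E8.5 the 1023 WT UMIs were spread over hindbrain floor plate (26.8%, from 78 cells), notochord (16.9%, from 12 cells), node (11.9%, from 6 cells) and ventral forebrain progenitors (9.19%). At E9.5 floor plate held 57.4% of 5386 WT UMIs (431 cells), ventral forebrain progenitors 11.6%, foregut 5.31%, notochord 4.47% and midgut 4.05%. Null cells had the same leading source at each stage, with 55.4% of 413 UMIs in node at E7.5, 37.1% of 2125 in floor plate at E8.5 and 54.1% of 6963 in floor plate at E9.5. Notochord, node and, at the later stages, the gut types hold under 50 WT cells and were chosen for description after their values were seen.

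**Figure D1:**
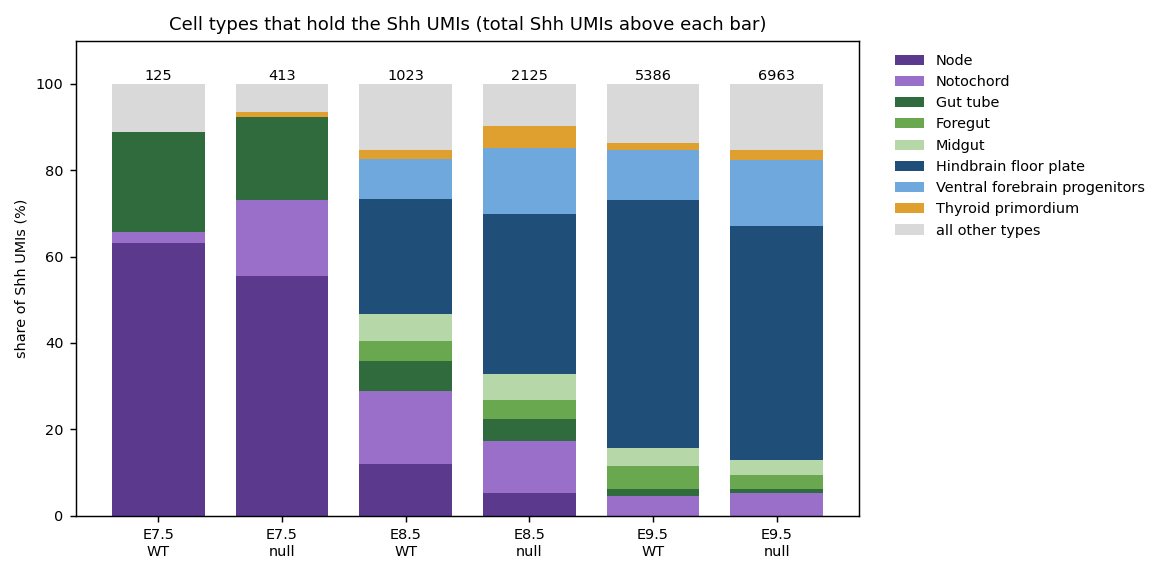
Stacked bars give the share (%) of all *Shh* UMIs of a stage and genotype that each cell type holds, with the total above the bar. Node leads at E7.5 and hindbrain floor plate (dark blue) leads at E8.5 and E9.5 in both genotypes, reaching 57.4% in E9.5 WT cells.

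Notochord and node had the highest *Shh* levels in WT cells at E8.5. Summed over WT cells it was 1342 CPM in 12 notochord cells at E8.5 (exact Poisson 95% interval 1149 to 1557, which covers counting error only) and 608 CPM in 16 cells at E9.5 (533 to 690). In null notochord it was 1479 CPM in 11 cells and 1275 CPM in 13 cells. The 6 WT cells named node at E8.5 stood at 1389 CPM, the 21 at E7.5 at 197 CPM, and the 2 at E9.5 held no *Shh* UMI, which allows up to 64.8 CPM. Among types of at least 50 WT cells, floor plate was first at both later stages. Its E8.5 WT libraries read 365 and 125 CPM and its null libraries 329 and 491. At E9.5 the WT libraries read 388, 345, 365 and 274 CPM and the null libraries 360.2, 419, 483 and 323, so the genotypes overlapped at both stages. In E9.5 WT libraries floor plate was above ventral forebrain in every library, with 343 ± 49.2 against 161 ± 82.9 CPM (SD, n = 4). Thyroid primordium followed at 69.3 ± 38.9 CPM (n = 3). At E7.5 gut tube was first among the larger types with 19.5 ± 8.91 CPM (n = 2) and visceral endoderm and non-neural ectoderm followed at summed levels of 2.21 and 0.770 CPM. The next types at E8.5 were chorioallantoic-derived erythroid progenitors at 12.5 CPM, where 5 of the 10 UMIs were in 1 cell, and yolk sac (YS) mesothelium at 7.10 CPM, where 12 of 15 UMIs were in 1 cell.

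When each cell was thinned to 10000 UMIs, 50% of WT floor plate cells had 1 at E8.5 (53.8% before thinning, median 18732 UMIs) and 66.4% at E9.5 (74.2%, median 24823). In null floor plate the thinned shares were 66.9% and 72.4% (73.4% and 80.2% before thinning, medians 19697 and 29403.5). Erythroid cells, which should lack *Shh*, gave 0.286% and 1.05% in WT (0.763% and 1.84% before thinning, medians 31385 and 22601). Notochord cells carried a *Shh* UMI in 83.3% of WT cells at E8.5 and 68.8% at E9.5 after thinning, far above that background.

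*Ihh* was sparse and lay mainly in endoderm. The 120 WT UMIs at E7.5 lay in visceral endoderm (31.7%), extra-embryonic (ExE) endoderm (28.3%) and gut tube (27.5%). In the null fraction at E7.5 there were no ExE endoderm cells and 2 visceral endoderm cells, and the 63 *Ihh* UMIs lay in gut tube (44.4%) and node (15.9%). At E8.5 gut tube and midgut each held 29.7% of 185 WT UMIs, at summed levels of 105.8 CPM (35 cells, interval 79.7 to 138) and 84.4 CPM (49 cells, 63.6 to 110), and hindgut stood at 53.0 CPM. At E9.5 the 12 cells named visceral endoderm were at 84.6 CPM (51.7 to 131), midgut at 45.5 CPM (25 cells, 29.4 to 67.1), hindgut at 24.1 and foregut at 20.5 CPM. Notochord held no *Ihh* UMI at any stage. Outside endoderm no WT type of at least 50 cells exceeded 3.56 CPM (posterior somitic tissues at E8.5), and *Ihh* passed the filter on low counts in no cell type, so it was tested only in whole libraries.

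*Ptch1*, the receptor, was highest in mesenchyme at E7.5 and later in floor plate, mesothelium and first heart field progenitors, and *Hhip* was highest in gut tube at E7.5 and in YS mesothelium at both later stages. *Ptch1* in WT E7.5 libraries was highest in mesenchyme at 307 ± 14.7 CPM, then lateral plate mesoderm at 217 ± 12.3 and intermediate mesoderm at 116 ± 21.8 (SD, n = 2), and mesenchyme and lateral plate mesoderm were each above the next type in both libraries. At E8.5 floor plate led at 783 ± 259 CPM (600.5 and 966), followed by embryo proper mesothelium (537 ± 164), YS mesothelium (521 ± 143), cardiopharyngeal progenitors of the first heart field (FHF, 442 ± 117) and sclerotome (365 ± 16.9). The first 4 of these did not separate beyond their library spread. At E9.5 embryo proper mesothelium (363 ± 80.7, n = 4), YS mesothelium (346 ± 29.98, n = 3), FHF progenitors (285 ± 24.7, n = 4) and floor plate (292 ± 36.3, n = 4) were the leading types, and neighbours in this order overlapped except that YS mesothelium was above FHF progenitors in every library. *Hhip*, which binds and sequesters ligand, was led by YS mesothelium at 60.1 ± 1.51 CPM at E8.5 (n = 2) and 93.8 ± 14.4 at E9.5 (n = 3), then FHF progenitors at 24.1 ± 3.02 and 66.2 ± 20.9, with embryo proper mesothelium at 23.6 ± 1.57 at E8.5 and epidermis at 48.8 ± 21.7 at E9.5. At E7.5 *Hhip* was at 19.7 ± 9.57 CPM in gut tube, 9.21 ± 4.18 in mesenchyme and, summed, 4.14 in haematoendothelial progenitors.

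*Smo*, the transducer, had as its 3 leading WT types paraxial mesoderm (134.5 CPM summed), nascent mesoderm (131) and gut tube (124) at E7.5, embryo proper mesothelium (129), floor plate (127) and anterior somitic tissues (123) at E8.5, and ventral forebrain (162), FHF progenitors (159.7) and somitic mesoderm (153) at E9.5, and library values of neighbours overlapped at E8.5 and E9.5. At E7.5 nascent mesoderm had enough cells in 1 library only, and its place was not assessed. Its low end was in blood, with erythroid cells at 30.5 CPM at E8.5 and 44.8 at E9.5.

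**Figure D2:**
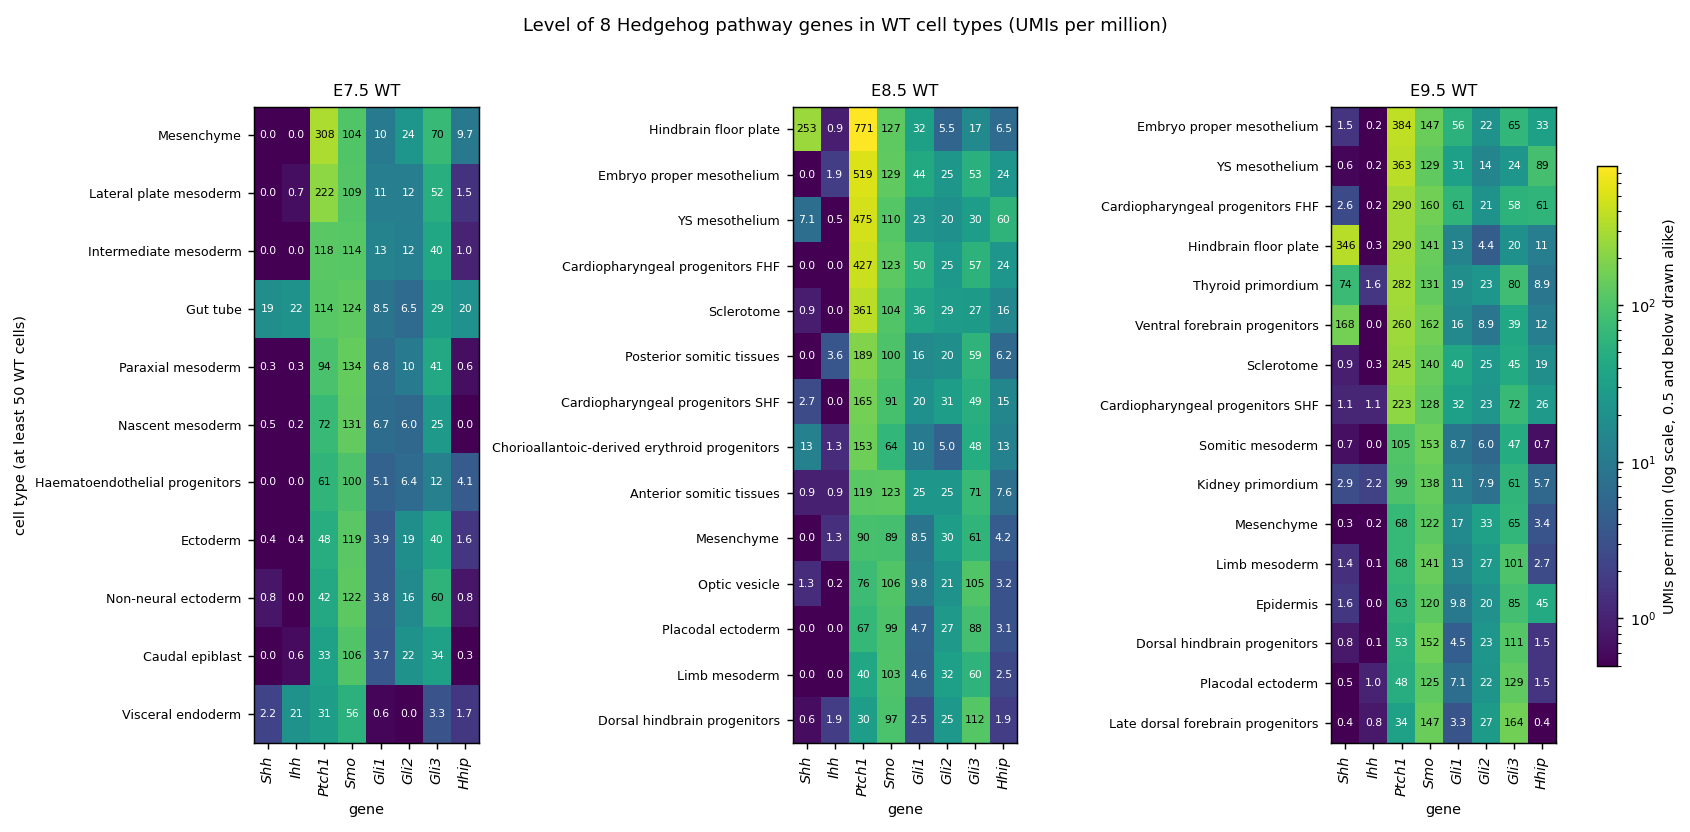
Colour (log scale) and printed number give the summed level, in CPM, of each gene (columns) in WT cell types with at least 50 cells (rows), 1 panel a stage, for types among the first 3 of any gene. At E9.5 *Shh* is high in floor plate, ventral forebrain and thyroid primordium and low in the other rows, *Smo* is present in every row, and floor plate pairs high *Ptch1* with low *Gli2* and *Gli3*.

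Among the transcription factors, *Gli1* was led at E8.5 and E9.5 by FHF progenitors and embryo proper mesothelium, both among the first 4 types for *Ptch1*, while none of the 3 leading types of *Gli2* or *Gli3* at those stages was among the first 5 for *Ptch1*. At E7.5 mesenchyme came first for *Ptch1*, *Gli2* and *Gli3* alike. *Gli1* was highest in FHF progenitors (50.6 ± 8.29 CPM at E8.5, n = 2, and 61.7 ± 5.55 at E9.5, n = 4), embryo proper mesothelium (44.1 ± 4.25 and 52.1 ± 16.5) and sclerotome (37.4 ± 3.89 and 40.8 ± 5.49), and at E7.5 in intermediate mesoderm (12.9 ± 6.78), lateral plate mesoderm (11.2 ± 0.703) and mesenchyme (10.5 ± 3.62). *Gli2* was highest in limb mesoderm (33.0 ± 6.53), cardiopharyngeal progenitors of the second heart field (SHF, 30.4 ± 11.8) and mesenchyme (30.5 ± 0.970) at E8.5, and in mesenchyme (33.3 ± 7.12), late dorsal forebrain (27.4 ± 4.34) and limb mesoderm (26.7 ± 3.74) at E9.5, with neighbours overlapping. At E7.5 mesenchyme (23.0 ± 6.01), caudal epiblast (22.3 ± 2.58) and ectoderm (20.1 ± 2.86) led. *Gli3*, the main repressor, was highest in dorsal hindbrain progenitors (111 ± 5.46), optic vesicle (105 ± 8.23) and placodal ectoderm (87.0 ± 14.1) at E8.5 and in late dorsal forebrain (161 ± 28.6, n = 4), placodal ectoderm (141 ± 9.25, n = 2) and dorsal hindbrain (109.7 ± 9.90, n = 4) at E9.5, and at E7.5 in mesenchyme (68.6 ± 13.4), non-neural ectoderm (61.9 ± 11.6) and lateral plate mesoderm (53.3 ± 4.97). In floor plate the *Gli3* level was 16.6 CPM at E8.5, the second lowest of the types with at least 50 cells.

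Likeness of pattern was described over 93 sums of a WT type at a stage, each of at least 50 cells. Notochord, node and, at the later stages, the gut types are not among them. The gene among 10804 whose pattern was most like *Ptch1* was *Gli1* (Pearson r = 0.815), then *Hsd11b2* (0.723) and *Frem1* (0.686). The same pair had r = 0.79 over 15 types at E7.5, 0.86 over 32 at E8.5 and 0.80 over 46 at E9.5. *Gli2* was most like *Hdgfrp3* (0.831), *Gli3* (0.814) and *Tenm3* (0.784), and *Gli3* like *Hdgfrp3* (0.846), *Gli2* and *Mex3a* (0.811). *Shh* was most like the ventral midline transcription factor genes *Foxa1* (0.775), *Nkx2-1* (0.713) and *Nkx2-2* (0.678), and *Hhip* most like *Hsd11b2* (0.712), *Ptch1* (0.682) and *Tnc* (0.645). *Gli1* after *Ptch1* was most like *Rab34* (0.754) and *Gpt2* (0.738), *Smo* most like *Zfp266* (0.862), *Mettl9* (0.853) and *Mex3a* (0.850), and *Ihh* most like *BC025446* (0.704), *Chrna9* (0.703) and *Pga5* (0.693). Types of 1 stage share libraries, depth and free RNA, so these values carry no test.

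In whole WT libraries *Shh* and *Hhip* rose between E7.5 and E8.5. *Shh* read 3.19 and 1.59 CPM in the E7.5 WT libraries, 10.7 and 8.53 CPM in those of E8.5, and 20.1, 23.1, 27.6 and 13.1 CPM in those of E9.5, with no overlap between stages. *Hhip* read 3.19 and 1.77, then 5.37 and 4.51, then 8.10, 10.6, 11.3 and 9.53 CPM, also without overlap. The share of all genes without overlap in whole libraries was not counted, so these separations carry no test. Within WT cell types 61.6% of all tests were apart between E7.5 and E8.5. A gene was called when edgeR's quasi-likelihood test gave a Benjamini-Hochberg adjusted p under 0.05 over all genes tested and a log2 fold change beyond 1. From E7.5 to E8.5 2 of the 8 genes were called against 17.7% of all 15565 genes: *Shh* rose by 2.16 (SE 0.44, adjusted p = 0.00168) and *Hhip* by 1.11 (SE 0.25, adjusted p = 0.00273). Without E7.5 WT B the *Hhip* change was 0.72 (adjusted p = 0.0583), and without E8.5 WT A it was 0.99. *Gli1* (0.97), *Gli3* (0.57) and *Gli2* (0.47) passed the adjusted p but not the fold threshold (*Gli1* passed it at 1.01 by limma-voom, 1.16 without E7.5 WT A, 1.01 without E8.5 WT A and 1.19 without erythroid cells, a choice made after seeing the data), as 44.8% of all genes passed that p, and *Ptch1* (0.34, adjusted p = 0.141), *Smo* (-0.13) and *Ihh* (-0.24) passed neither. Under the alternatives *Gli3* ranged from 0.40 to 0.79 and *Gli2* from 0.35 to 0.70, and neither kept the adjusted p under each. In a whole library fewer cells of a type and less RNA per cell cannot be told apart. The E8.5 libraries enter both stage comparisons.

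From E8.5 to E9.5 1 of 8 was called against 10% of all genes. *Ihh* fell by 1.51 on the log2 scale (SE 0.44, adjusted p = 0.0152), from 0.821 and 2.73 CPM to 0.651, 0.455, 0.654 and 0.959. The groups overlapped, and without E8.5 WT B the change was -0.39 (adjusted p = 0.618). *Shh* was higher by 0.98 (SE 0.32, adjusted p = 0.0293), below the fold threshold, and passed it at 1.00 without E9.5 WT A and 1.15 without E9.5 WT D. It lost the adjusted p with limma-voom (0.0555), without erythroid cells (0.0839, chosen after seeing the data) and when E8.5 WT A or B or E9.5 WT B or C was left out (0.0573 to 0.199). Floor plate made up 1.12% and 1.38% of cells in the E8.5 WT libraries and 2.53% to 5.36% at E9.5. With floor plate cells left out, also chosen after seeing the data, the *Shh* difference was 0.21 (SE 0.24, adjusted p = 0.504); these cells held 26.8% of the WT *Shh* UMIs at E8.5 and 57.4% at E9.5, so leaving them out had to lower it, and a larger share of these cells and more *Shh* per cell were not separated by that fit. *Hhip* (0.86), *Gli1* (0.55), *Smo* (0.44) and *Gli3* (0.34) also passed the adjusted p without the fold, which 40.4% of all genes passed. *Ptch1* (-0.01, adjusted p = 0.977) and *Gli2* (0.12, adjusted p = 0.358) did not pass.

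**Figure D3:**
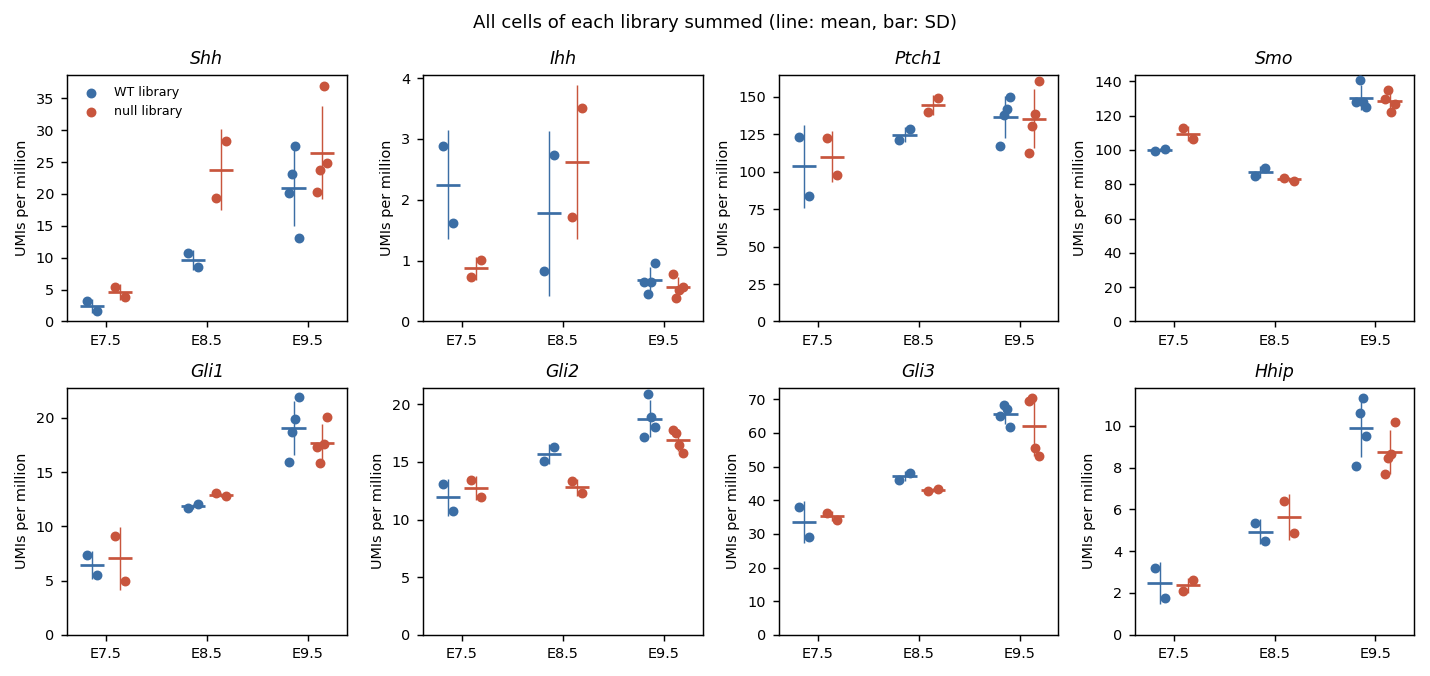
Each point is 1 library with all its cells summed, in CPM, for WT (blue) and *Stat3* null (red) at each stage, and lines and bars give the mean and SD. *Shh* climbs from 3.19 and 1.59 in E7.5 WT libraries to 13.1 to 27.6 at E9.5, *Ptch1* stays between 84.04 and 161 in all 16 libraries, and null *Shh* lies above WT at E7.5 and E8.5.

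Within WT cell types, from E8.5 to E9.5, *Ptch1* and *Gli1* fell in floor plate, *Gli1* rose in both neural crest types tested, pharyngeal endoderm, limb mesoderm and cranial mesoderm, and *Hhip* rose in FHF progenitors. *Hhip* was also called in migratory neural crest, with 1 UMI at E8.5. There it passed the filter on low counts through the E9.5 libraries alone, so only a rise could be called. Of 154 gene and type tests in 31 types, 10 were called (8 up, 2 down) against 3.2% of all tests, 2.17% up and 1.02% down. Without the fold threshold 34 passed, against 9.64% of all tests (4.48% up and 5.16% down). *Gli1* supplied 5 of the 8 rises and 1 of the 2 falls. In branchial arch neural crest, whose cells form the facial skeleton, it read 4.07 and 3.47 CPM in the E8.5 libraries and 15.99, 14.8, 16.7 and 17.8 at E9.5, a rise of 1.95 (SE 0.33, adjusted p = 0.00012). In pharyngeal endoderm it read 2.13 and 1.90, then 14.0, 14.9 and 17.4 CPM, a rise of 2.82 (SE 0.50, adjusted p = 0.000551). In migratory neural crest it went from 3.26 and 4.23 to 22.9, 10.2, 19.1 and 12.6 CPM (1.96, SE 0.40, adjusted p = 0.00254). Groups were apart in all 3 types, as in 38.3% of all tests, and these calls held under each of the 11, 10 and 11 alternatives that gave a value. Limb mesoderm (3.98 and 5.51, then 14.01, 11.02, 14.4 and 13.6 CPM) rose by 1.44 (SE 0.33, adjusted p = 0.00742; 0.158 without E8.5 WT A) and cranial mesoderm (3.60 and 8.88, then 13.6, 33.0, 13.8 and 17.4) by 1.46 (SE 0.49, adjusted p = 0.0454; 0.131 by DESeq2, 0.147 by limma-voom, and 0.0566 to 0.406 without E8.5 WT A, E8.5 WT B, E9.5 WT B or E9.5 WT D).

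In floor plate *Ptch1* and *Gli1* fell, while *Hhip* and *Shh* did not pass the test. *Ptch1* read 600.5 and 966 CPM in the E8.5 WT libraries and 256, 299.8, 274 and 339 at E9.5, a change of -1.49 (SE 0.23, adjusted p = 0.0266). *Gli1* read 22.5 and 43.6, then 13.4, 11.5, 10.6 and 19.1 CPM, a change of -1.34 (SE 0.35, adjusted p = 0.0232). Groups were apart for both. *Hhip*, the remaining readout, read 5.19 and 7.92, then 5.07, 13.4, 17.5 and 7.76 CPM, with overlapping groups (0.72, SE 0.68, adjusted p = 0.635). *Shh* in the same cells differed by 0.39 (SE 0.43, adjusted p = 0.715), and by 1.38 (adjusted p = 0.00445) without E8.5 WT A. Without E9.5 WT A, B or C the adjusted p for *Ptch1* was 0.0543, 0.0606 and 0.0782 at a change of -1.43 to -1.51, and without E8.5 WT B *Gli1* was at -0.79 (adjusted p = 0.503; 0.0587 without E9.5 WT C). In thinned cells the share with a *Ptch1* UMI was 96.2% at E8.5 and 74.9% at E9.5 (97.4% and 90.7% before thinning), with 18.5% and 21.6% in erythroid cells (45.7% and 43.7%).

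The other calls in WT concerned *Hhip* and *Gli3*. *Hhip* in FHF progenitors read 21.9 and 26.2, then 85.4, 78.8, 62.3 and 38.5 CPM (1.32, SE 0.34, adjusted p = 0.0299; 0.178 by limma-voom, 0.0559 with tdTomato-positive WT-sorted cells kept, 0.0778 without E9.5 WT C, and 0.334 and 0.215 without E8.5 WT A and B). *Hhip* in migratory neural crest rested on 1 and 0 UMIs in the E8.5 libraries and 22, 4, 11 and 4 at E9.5 (adjusted p = 0.0226, and 0.0671 and 0.233 without E8.5 WT A and B). The ratio of the summed levels was 23.0, with an exact 95% counting interval of 3.90 to 930.5. *Gli3* in erythroid cells read 2.66 and 5.09, then 7.20, 12.96, 12.2 and 12.4 CPM (1.33, SE 0.39, adjusted p = 0.0249; 0.101 with over 50 cells required per library, and 0.132, 0.0532 and 0.0986 without E8.5 WT A, E9.5 WT C and E9.5 WT D). These levels rested on 6 to 48 UMIs a library, and after thinning 2.10% of these cells at E8.5 and 5.53% at E9.5 held a *Gli3* UMI (5.82% and 12.4% before thinning). Whole WT libraries stood at 46.1 and 48.2 CPM at E8.5 and 61.9 to 68.3 at E9.5, and the part of free RNA in the erythroid change was not tested. Below the fold threshold, *Ptch1* passed the adjusted p downward in FHF progenitors (-0.70), posterior somitic tissues (-0.99), dermomyotome (-0.86), sclerotome (-0.65), YS mesothelium (-0.59), dorsal spinal cord (-0.35) and ventral hindbrain (-0.32) and upward in migratory neural crest (0.85), dorsal hindbrain (0.77), branchial arch neural crest (0.74) and limb mesoderm (0.60). With floor plate that made 8 types of *Ptch1* lower and 4 higher of 31 tested, at a median of 0.00. In posterior somitic tissues the *Ptch1* change was -1.31 without E8.5 WT B, -1.03 without E9.5 WT A and -1.08 without E9.5 WT C, past the fold threshold. Without E8.5 WT A it was -1.10 in dermomyotome and 1.12 in migratory neural crest. *Gli1* in dorsal spinal cord read 29.2 and 25.8, then 12.1, 12.8, 19.6 and 22.8 CPM (-0.92, SE 0.24, adjusted p = 0.00823; -1.10 without E9.5 WT D, past the fold threshold), so the groups were apart, and in optic vesicle it passed the adjusted p upward (0.77). *Gli3* in limb mesoderm, where it limits digit number, read 56.2 and 65.2, then 109.6, 108, 99.1 and 95.6 CPM (0.68, SE 0.12, adjusted p = 0.00127). *Gli3* also passed the adjusted p upward in placodal ectoderm (0.63), sclerotome (0.60), ventral hindbrain (0.51) and branchial arch neural crest (0.46), and *Hhip* in YS mesothelium (0.59). *Smo* was above 0 in 31 of 31 types (0.07 to 0.71, median 0.31), with 4 past the adjusted p. *Gli2* was below 0 in 20 of 25 types, with 1 past the adjusted p, upward in branchial arch neural crest (0.94). Against these, the median over all genes was 0.01. The types share libraries, so these counts of signs carry no test.

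**Figure D4:**
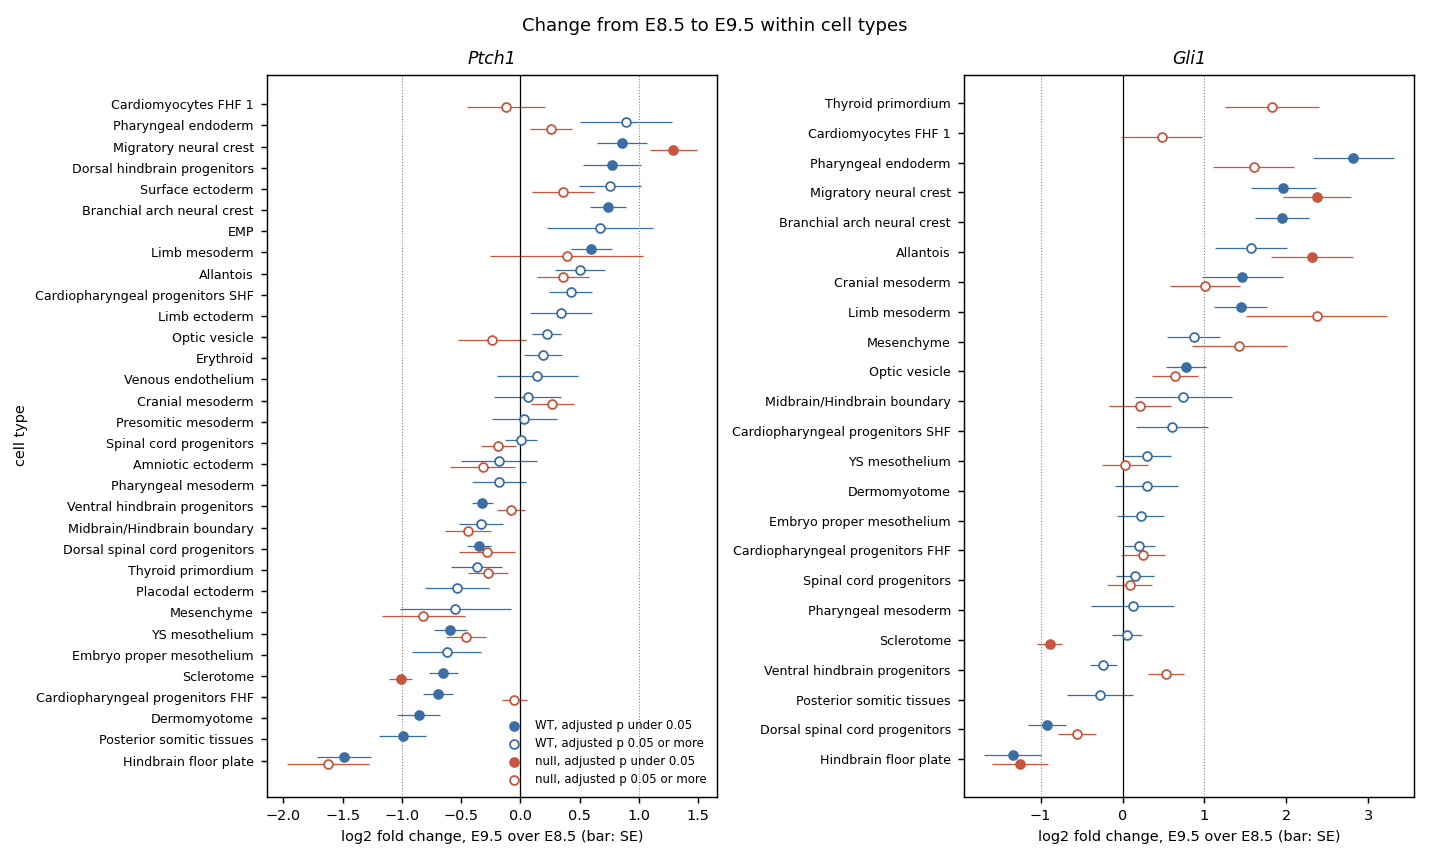
Points give the log2 fold change from E8.5 to E9.5 with its SE for *Ptch1* (left) and *Gli1* (right) in each cell type (rows) of WT (blue) and null (red) cells, filled where the adjusted p is under 0.05, with dotted lines at -1 and 1. Both genes lie below -1 in WT floor plate, and *Gli1* reaches 2.82 in WT pharyngeal endoderm.

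*Stat3* null cells, tested on their own libraries, had 7 of 105 tests called in 19 types (5 up, 2 down) against 2.88% of all tests, 1.99% up and 0.894% down, and 14 without the fold threshold, against 7.88%. In migratory neural crest *Gli1* read 4.15 and 0.901 CPM in the E8.5 libraries, then 18.2, 16.4, 19.4 and 14.3 CPM (2.37, SE 0.41, adjusted p = 0.00131). *Ptch1* in those cells read 35.5 and 23.4, then 68.8, 85.1, 97.8 and 84.4 CPM (1.29, SE 0.20, adjusted p = 0.000591). Groups were apart for both, as in 39.5% of all tests, and both calls held under each of the 11 alternatives. In sclerotome, the ventral somite that forms vertebrae under *Shh*, *Ptch1* read 372 and 419, then 199.8, 241, 199 and 196 CPM (-1.01, SE 0.10, adjusted p = 1.55e-06), and the change lay between -0.93 and -1.12 under the alternatives, just on either side of the fold threshold. *Gli1* in null sclerotome was at 56.5 and 49.9, then 32.8, 30.01, 36.3 and 28.4 CPM (-0.89, SE 0.15, adjusted p = 0.00116), below the fold threshold. In null floor plate *Gli1* read 20.9 and 31.1, then 11.5, 12.3, 5.29 and 13.5 CPM (-1.25, SE 0.34, adjusted p = 0.0325; 0.0532 by DESeq2, 0.0542 without null-sorted cells that lacked a tdTomato UMI, 0.0649 without E9.5 null A, and 0.0998 and 0.159 without E8.5 null A and B, and a change of -0.9996, below the fold threshold, without E9.5 null C), and *Ptch1* read 616 and 941, then 245, 327, 165 and 297 (-1.62, adjusted p = 0.0763; -1.45 and 0.0131 without E9.5 null C). The remaining calls were *Gli3* in thyroid primordium (18.5 and 15.4, then 55.4 and 84.3 CPM; 1.90, adjusted p = 0.00742, and 0.198 by DESeq2 and 0.0846 without E9.5 null B), *Gli1* in allantois (6.51 and 4.68, then 42.6 and 21.6; 2.31, adjusted p = 0.0423, and 0.0929 by DESeq2, 0.0766 by limma-voom and 0.246 without E9.5 null A) and *Shh* in ventral hindbrain, which rested on 1 UMI at E8.5 and 36, 29, 23 and 8 UMIs at E9.5 (adjusted p = 0.00138, and 0.0601 by limma-voom and 0.0756 without E8.5 null A). *Shh* in ventral hindbrain passed the filter on low counts through the E9.5 libraries alone, so only a rise could be called. *Smo* was above 0 in 18 of 19 types with 5 past the adjusted p. These types share libraries, so that count of signs carries no test. Cells named thyroid primordium in null also differed in markers between E8.5 and E9.5. Summed *Hhex* was 147 and 61.6 CPM, *Pax8* 65.1 and 26.9, *Nkx2-1* 74.5 and 64.4, and *Epcam* 811 and 814. The part of this in the *Gli3* change was not tested. Whether a stage change differed between WT and null within a type was not tested.

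Between E7.5 and E8.5 only lateral plate mesoderm and mesenchyme had enough cells. edgeR called 0 of 11 tests in WT and 0 of 11 in null cells, against 8.55% and 6.91% of all tests, with 0 and 3 at an unadjusted p under 0.05 (32.4% and 26.4% of all tests); DESeq2 called 0 in each and limma-voom 0 and 2. *Ptch1* in mesenchyme read 317 and 296 CPM, then 50.5 and 129 in WT (-1.75, SE 0.54, adjusted p = 0.169), and 363 and 304, then 59.3 and 149.8 in null cells (-1.77, SE 0.44, adjusted p = 0.0656, and 0.0196 by limma-voom). The null change was -1.11 without E8.5 null A and -2.52 without E8.5 null B. *Gli1* in null mesenchyme read 11.6 and 8.67, then 2.23 and 6.04 CPM (-1.63, SE 0.51, adjusted p = 0.0549; 0.0469 by limma-voom, 0.0166 without the filter on low counts, 0.0429 without null-sorted cells that lacked a tdTomato UMI, and 0.00622 without E8.5 null B). The groups were apart in these 3 comparisons, as in 61.6% and 56.5% of all tests. Leaving out any of the 4 WT libraries brought the WT change past the threshold at -1.23 to -2.58; each such fit rests on 1 library at a stage, assumed to vary like the others. The other pairs with the smallest p and groups apart were, in WT, *Smo* (-0.25) and *Gli3* (0.32) in lateral plate mesoderm and *Gli2* in mesenchyme (0.41), and in null cells *Gli3* in mesenchyme (0.52) and *Smo* in lateral plate mesoderm (-0.27) and mesenchyme (-0.25). None of them passed the adjusted p.

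Null cells were compared with WT cells to look for differences in the pathway. All null cells came from injected, tdTomato-marked stem cells and all WT cells from the host, and no chimera with WT donor cells was sequenced. Loss of STAT3 and donor origin therefore cannot be told apart here. In whole libraries, with stage as a term, edgeR, DESeq2 and limma-voom each called 0 of 8 genes, against 0.649% of all genes by edgeR, and 1 of 8 had an unadjusted p under 0.05, as 17.0% of all genes did. That gene was *Shh*. Its null libraries read 5.47 and 3.77 CPM at E7.5, 19.3 and 28.3 CPM in the E8.5 pair and 20.3, 23.7, 36.9 and 24.9 CPM in those of E9.5, above both WT libraries at E7.5 and E8.5 and overlapping them at E9.5. How many of all genes were apart in the same way was not counted. The difference was 0.74 (SE 0.21, adjusted p = 0.0804), with the adjusted p at 0.00581 by DESeq2, 0.129 by limma-voom and 0.0414 without E9.5 WT C. By stage it was 1.13 (SE 0.46, adjusted p = 0.201), 1.30 (SE 0.37, adjusted p = 0.374) and 0.35 (SE 0.25, adjusted p = 0.819), and the test of a difference between stages gave an adjusted p of 0.668. Floor plate was 2.79% of cells in both E8.5 null libraries against 1.38% and 1.12% in WT. Node was 1.84% and 1.11% of cells in E7.5 null against 1.38% and 0.617% in WT, with overlap, and the part of node cells in the difference was not tested. With floor plate cells left out, a choice made after seeing the data, the difference over the 3 stages was 0.74 (adjusted p = 0.0169), below the fold threshold. The part of floor plate cells in the E8.5 difference was not tested.

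The other 7 genes lay between -0.29 (*Ihh*) and 0.09 (*Ptch1*) in whole libraries, with adjusted p of 0.432 or more. *Ihh* at E7.5 read 2.88 and 1.61 CPM in WT and 0.736 and 1.01 in null libraries (-1.36, SE 0.58, adjusted p = 0.226), beside 42 ExE and 102 visceral endoderm cells in WT against 0 and 2 in the null fraction; the part of these cells in the difference was not tested. The fits to a single stage each called 0 of 8 genes, against, in stage order, 2.62%, 0.103% and 0.745% of all genes, with 3, 2 and 0 of 8 at an unadjusted p under 0.05, which 18.2%, 5.26% and 9.08% of all genes reached. None of the 8 genes passed the test of whether the difference between null and WT changed with stage, against 1.52% of all genes. The smallest adjusted p was 0.520, for *Gli2*. At an unadjusted p under 0.05 there were 0 of 8, against 9.82% of all genes, and DESeq2 and limma-voom also gave 0. Not passing does not show that the differences were alike at the 3 stages.

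Within cell types edgeR called 0 of 32 tests at E7.5 (7 types), 0 of 95 at E8.5 (20 types) and 0 of 192 at E9.5 (37 types), against 0.186%, 0.0609% and 0.12% of all tests, and DESeq2 and limma-voom also called 0. An unadjusted p under 0.05 was reached by 2, 7 and 13 tests, 6.25%, 7.37% and 6.77% against 4.06%, 4.32% and 6.26% of all tests. Medians over the members' tests were 0.02, -0.04 and -0.05. *Ptch1* passed the adjusted p without the fold in 1 type at E8.5 and 1 at E9.5, where 0.0935% and 0.271% of all tests did. In the optic vesicle at E8.5 it read 84.03 and 69.7 CPM in WT and 134 and 112 in null cells (0.73, SE 0.14, adjusted p = 0.0465). The adjusted p was 0.956 by DESeq2 and 0.0512 by edgeR with tdTomato-positive WT-sorted cells kept. The difference was 0.59 without E8.5 null A or without E8.5 WT B, fits with 1 library on 1 side. In FHF progenitors at E9.5 it read 258, 288, 276 and 317 CPM in WT and 429, 360.2, 362 and 395 in null cells (0.42, SE 0.08, adjusted p = 0.0139; 0.00835 by DESeq2, 0.617 with over 50 cells required per library, and 0.0675 to 0.0848 without E9.5 null A, null D, WT A or WT C). The null libraries were above every WT library in both types. Over all types *Ptch1* was on both sides of 0, above it in 12 of 20 types at E8.5 and in 18 of 37 at E9.5.

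**Figure D5:**
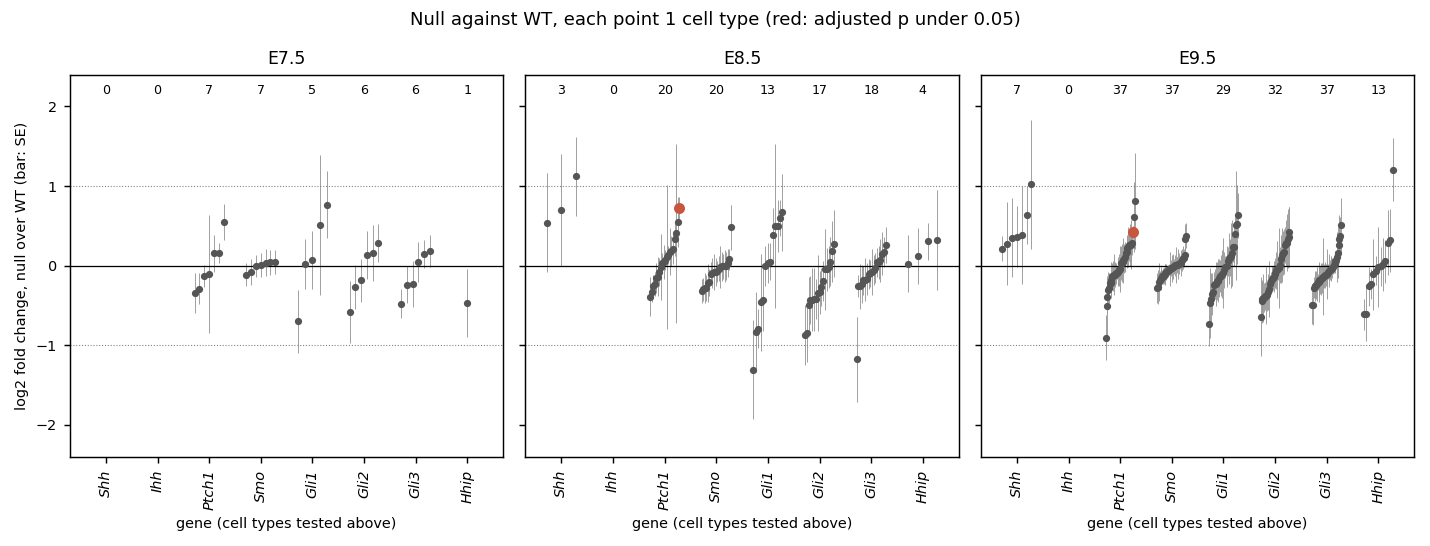
Each point is the log2 fold change of null over WT in 1 cell type with its SE, by gene and stage, with the number of types tested above each gene and dotted lines at -1 and 1. The red points, *Ptch1* in optic vesicle at E8.5 (0.73) and in FHF progenitors at E9.5 (0.42), are those with an adjusted p under 0.05.

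Among the smallest p-values, the pairs with non-overlapping groups at E9.5 included *Hhip* in YS mesothelium (WT 89.6, 109.8 and 81.9 CPM, null 43.3, 71.7 and 65.5; -0.61, adjusted p = 0.308), *Ptch1* in limb ectoderm (WT 116 and 121, null 77.2 and 38.6; -0.90, adjusted p = 0.550, and -1.61 with an adjusted p of 0.0159 without E9.5 null A, a fit that also called *Ptch1* in placodal ectoderm at 1.51), *Smo* in SHF progenitors (WT 120.0, 138 and 134, null 177, 156 and 179; 0.38, adjusted p = 0.863) and *Gli3* at the midbrain-hindbrain boundary (-0.28). Groups were apart in 21 of the 192 tests, 9 up and 12 down, against 9.49% of all tests. At E8.5 such pairs included *Gli1* in ventral hindbrain (35.7 and 32.2 in WT, 22.3 and 12.7 in null; -0.79), *Ptch1* in the same cells (-0.34), *Gli1* in sclerotome (34.6 and 40.1 in WT, 56.5 and 49.9 in null; 0.60, adjusted p = 0.728) and *Gli2* in pharyngeal endoderm (-0.85). Groups were apart in 8 tests up and 27 down of 95 at E8.5, against 33.1% of all tests. At E7.5 the pairs were *Gli3* in mesenchyme (78.1 and 59.2 in WT, 50.2 and 46.0 in null; -0.48, adjusted p = 0.924), *Ptch1* in caudal epiblast (0.54) and blood progenitors (-0.29), and *Gli2* in intermediate mesoderm (-0.58) and ectoderm (0.28), and groups were apart in 2 up and 5 down of 32, against 31.3% of all tests. None of these pairs passed the adjusted p with all libraries.

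*Shh* was above 0 in 3 of 3 types at E8.5 and 7 of 7 at E9.5, with no test called. In floor plate the difference was 0.70 (SE 0.71, adjusted p = 0.997) at E8.5 and 0.22 (SE 0.15, adjusted p = 0.839) at E9.5. In thyroid primordium it was 1.12 (43.2 and 45.4 CPM in WT, 63.1 and 158 in null; adjusted p = 0.993) at E8.5 and 0.27 at E9.5. Cells named thyroid primordium also differed in markers between WT and null at E8.5. Summed *Nkx2-1* was 21.0 and 74.5 CPM, *Hhex* 63.0 and 147, *Pax8* 40.5 and 65.1, and *Epcam* 835 and 811. The part of this in the *Shh* difference was not tested. In ventral forebrain at E9.5 the WT libraries read 113, 246, 215 and 70.6 CPM and the null libraries 217, 254, 196 and 178 (0.36, SE 0.38, adjusted p = 0.997). Of the fits that left out 1 library at E8.5, the one without null A called *Shh* in thyroid primordium (1.86, adjusted p = 0.00154) and the one without WT A called it in floor plate (1.68, adjusted p = 6.26e-08). *Shh* in optic vesicle was called without null B or without WT B, on 0 and 6 UMIs in the WT libraries and 47 and 3 in the null libraries. Each of these fits has 1 library on 1 side. *Gli2* lay below 0 in 14 of 17 types at E8.5 and 21 of 32 at E9.5 and *Gli3* in 12 of 18 and 27 of 37, with medians of -0.34 and -0.10 for *Gli2* and -0.09 and -0.10 for *Gli3* and a smallest adjusted p of 0.437. *Smo* lay below 0 in 17 of 20 and 22 of 37 types, with medians of -0.08 and -0.03. The medians over all genes were 0.0015 and -0.00097. Types of 1 stage share libraries, so these counts of signs carry no test.

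Other genes of the pathway, 49 of a list of 50 found in the matrix, were chosen with earlier results of these data known and are described by counts. Within WT types 63 tests rose and 23 fell of 927 from E8.5 to E9.5 (9.28% called against 3.2% of all tests, median 0.20 against 0.01), and in null cells 31 rose and 18 fell of 608 (8.06% against 2.88%, median 0.17 against 0.01). Genes for ligand release and spread supplied 18 rises and 1 fall of 82 in WT, led by *Scube3*, a secreted factor that carries ligand off the cell, which rose in 10 of 26 WT types and 7 of 17 null types. It rose by 3.33 in branchial arch neural crest and 1.46 in floor plate. *Scube1* rose in 7 of 24 WT types. Among co-receptors *Gas1*, which promotes ligand binding, rose in 4 of 31 WT types and *Lrp2*, an endocytic receptor for ligand, fell in 5 of 19, by 1.14 in floor plate. Of genes that respond to the pathway, 35 tests rose and 15 fell of 272, with *Pax1* (1.61) and *Pax9* (1.69) up in sclerotome, where *Ptch1* was 0.65 lower, and *Foxa2* down in ventral hindbrain (-1.96). Cilium and transduction genes had 4 rises and 2 falls of 443. Between null and WT cells 0 of 204 tests were called at E7.5, 3 of 574 at E8.5 and 1 of 1115 at E9.5, against 0.186%, 0.0609% and 0.12% of all tests, all higher in null cells: *Tulp3*, which carries receptors into the cilium, in cranial mesoderm (1.11) and dorsal spinal cord (1.30), *Pax1* in pharyngeal endoderm (1.63) and *Ccnd1* in erythro-myeloid progenitors, the type labelled EMP (1.69). Over all types tested at the same stage the median was -0.13 for *Tulp3* (19 types), 0.10 for *Pax1* (3 types) and 0.21 for *Ccnd1* (37 types).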

How the data were processed

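The data were 10x Genomics 3′ single-cell RNA libraries of sorted chimera cells. The authors made the deposited counts (UMIs per gene and cell) with Cell Ranger against mm10 with a tdTomato sequence added, filtered cells by reads, genes and mitochondrial share, called doublets with scds and named cell types by mapping to an embryo atlas. Here, cells that passed the authors' filter and were not doublets were kept, WT-sorted cells with a tdTomato UMI were left out, and 8184 genes (predicted, mitochondrial, ribosomal protein, haemoglobin, sex-specific and reporter genes) were removed. Counts were summed per library and cell type (over 15 cells) or per library. No column lacked a matching sample or group (0 unmatched).

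Sums were tested with edgeR 4.0.16 (R 4.3.3, filterByExpr, TMM, robust quasi-likelihood), with Benjamini-Hochberg adjustment within a cell type over all genes. Null was compared with WT at each stage, and stages within a genotype; whole-library fits used all 16 libraries. The scripts were tested on simulated data. DESeq2 1.42.0, limma-voom (limma 3.58.1), no filter on low counts, no fold threshold, over 50 cells, other tdTomato rules and each library left out were the alternatives. Levels are CPM over the 21269 genes kept, and intervals cover counting error only. The detection shares were computed after thinning each cell to 10000 UMIs, and 0 cells fell below that number. The pseudocount for correlations was 1 CPM, over genes that reached 20 CPM in a type. The members and lists were chosen with earlier results of these data known. Named were all 8 genes, each with the 3 WT types of at least 50 cells that led at a stage, every called type, and per comparison the 5 pairs with the smallest p among those whose groups did not overlap.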

Additional observations from a re-analysis of the deposited data

Results flagged for a closer look

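In 5 of the 66 groups of 4 libraries examined, 1 library lay far from the others by Dixon's criterion, and chance gives about 1 in 20. *Gli2* in mesenchyme of E9.5 null B was at 43.6 CPM, with the other 3 libraries at 19.6 to 21.5. *Gli1* in limb mesoderm of the same library was at 5.35 CPM, with the others at 13.3 to 14.2, and *Ptch1* in its sclerotome was at 241 CPM, with the others at 196 to 199.8. *Gli3* in erythroid cells of E9.5 WT A was at 7.20 CPM, with the others at 12.2 to 12.96. *Shh* in ventral hindbrain of E9.5 null D was at 2.66 CPM, with the others at 8.55 to 9.48. *Gli3* in amniotic ectoderm had non-overlapping null and WT libraries in opposite directions at the 2 later stages, with a log2 difference of -0.17 at E8.5 and 0.11 at E9.5, and the difference between these effects was not tested.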

How the results depend on the processing

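Counts of called tests changed with these settings. Without the fold threshold there were 1 (null against WT, E8.5), 1 (E9.5), 34 (WT, E8.5 to E9.5), 14 (null, E8.5 to E9.5), and in whole WT libraries 5 (E7.5 to E8.5) and 6 (E8.5 to E9.5). Without a filter on low counts there were 1 of 154 tests (null against WT, E8.5), 2 of 290 (E9.5) and 1 of 16 (null, E7.5 to E8.5), with 491, 1195 and 1757 calls over all genes. With over 50 cells the stage counts for E8.5 to E9.5 were 4 of 63 tests in WT and 2 of 11 in null cells, with 4593 and 978 calls over all genes. The main run held 154 and 105 such tests. Limma-voom gave 2 of 11 (null, E7.5 to E8.5) and 4 of 105 (null, E8.5 to E9.5), with 1268 and 3922 calls over all genes. Leaving out null cells without a tdTomato UMI gave 1 of 11 (null, E7.5 to E8.5), with 1223 calls over all genes. Leaving out 1 library at a time gave 1 to 1 at E8.5 and 0 to 2 at E9.5 for null against WT, 1 to 3 (WT, E7.5 to E8.5), 7 to 12 (WT, E8.5 to E9.5), 0 to 2 (null, E7.5 to E8.5), 5 to 9 (null, E8.5 to E9.5), and in whole WT libraries 1 to 3 and 0 to 2. The cause was not tested. Where this left 1 library in a group, it was assumed to vary like the others.

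Some whole-library differences that were not called changed sign. From E7.5 to E8.5 *Ihh* was at 0.19 without E7.5 WT A and 0.39 without E8.5 WT A, and *Smo* at 0.024 without erythroid cells. From E8.5 to E9.5 *Gli2* was at -0.089 without erythroid cells and *Ptch1* at 0.00049 without the filter, 0.047 without E8.5 WT B, 0.065 without E9.5 WT A and 0.014 without floor plate cells. For null against WT, *Gli1* was at -0.0034 by limma-voom, -0.058 without E7.5 null A and -0.012 without E7.5 WT B, *Hhip* at 0.016 without E7.5 WT A and 0.0013 without E9.5 null A or E9.5 WT C, and *Gli3* at 0.0013 without E9.5 null D. Over all left-out libraries these differences ranged from -1.36 to 0.39 (*Ihh*), from -0.061 to 0.065 (*Ptch1*), from -0.058 to 0.084 (*Gli1*), from -0.11 to 0.016 (*Hhip*) and from -0.076 to 0.0013 (*Gli3*). Leaving out floor plate or erythroid cells was chosen after seeing the data. The requirement of over 50 cells left no cell type for null against WT at E7.5 or for null cells from E7.5 to E8.5, and was not run there. No paired analysis was possible because the library columns carry no embryo pool. With 2 libraries a group at E7.5 and E8.5, the smallest difference that could be detected was not estimated.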
